A study of Homo sapiens with 6 samples.

Results

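The genes described here encode the proteins that cut introns out of transcripts and those that choose which splice sites are used. They are 60 genes given by name, and they were read from the deposited array table through its gene annotation, with older symbols updated. A gene counted where a row carried its symbol alone, or where it was the only protein-coding gene among several symbols, and of several such rows the brightest on average over the 6 arrays was taken. By this rule 57 of the 60 were measured, out of 22826 genes tested. They fall into 8 classes: 10 SR proteins, 4 SR-related proteins, 3 SR kinases, 18 hnRNP proteins, 7 other splicing regulators, 5 U1 and Sm proteins, 7 proteins of U2 and the 3′ splice site, and 6 proteins of the U4/U6.U5 particle.

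The samples were 6 arrays of SW480 cells, an established epithelial line from a human colorectal adenocarcinoma (Dukes B in the labels). The 3 arrays of one group came from cells transiently transfected with 30 pmol of an siRNA against KHSRP, and the 3 of the other from cells given the same amount of a non-targeting scramble siRNA. Both groups received 2 µl of a lipid reagent, and RNA was taken after 48 h. The labels call the arrays of a group biological replicates, do not give the siRNA sequences and do not say whether the arrays came from separate cultures. If they did not come from separate cultures, p-values measure only the spread between these samples.

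The spliceosome assembles anew on each intron. The U1 particle recognises the 5′ splice site, U2AF and the U2 particle with its SF3A and SF3B complexes define the branch point and 3′ splice site, and the U4/U6.U5 particle then joins and is remodelled by the helicase SNRNP200 around the scaffold PRPF8. SR proteins generally promote the use of exons they bind, many hnRNP proteins repress it, and many genes of both families limit their own expression by splicing in exons that send the transcript to decay. KHSRP, the KH-type splicing regulatory protein, took its name from a complex on an intronic enhancer next to the neural N1 exon of SRC, where it was found with hnRNP F, hnRNP H and polypyrimidine tract-binding proteins.

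The promoters of 4 genes are shown, those of RBM25, the gene that was called, and of PTBP3, SNRNP200 and PRPF8, which had some of the largest differences. Each is the 250 bases before the annotated start, 5′ to 3′ on the gene's strand, from RefSeq on GRCh38.p14. Capitals mark every match, on either strand, to any of 4 motifs. The GC box was searched as GGGCGG, which is bound by factors such as SP1. The CCAAT box was searched by its 5 letters, the core of sites for ETS factors as CCGGAAG, and the box bound by the TATA-binding protein as TATAAA. None of the matches overlap each other in the windows shown. RBM25 lies at chr14:73058284-73058533 on the plus strand, PTBP3 at chr9:112333027-112333276 on the minus strand, SNRNP200 at chr2:96305547-96305796 on the minus strand and PRPF8 at chr17:1684868-1685117 on the minus strand.
RBM25: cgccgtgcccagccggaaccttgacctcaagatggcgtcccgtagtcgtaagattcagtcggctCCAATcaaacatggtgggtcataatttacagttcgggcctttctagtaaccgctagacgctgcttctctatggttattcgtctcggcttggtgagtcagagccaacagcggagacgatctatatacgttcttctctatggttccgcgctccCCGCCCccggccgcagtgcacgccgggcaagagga
PTBP3: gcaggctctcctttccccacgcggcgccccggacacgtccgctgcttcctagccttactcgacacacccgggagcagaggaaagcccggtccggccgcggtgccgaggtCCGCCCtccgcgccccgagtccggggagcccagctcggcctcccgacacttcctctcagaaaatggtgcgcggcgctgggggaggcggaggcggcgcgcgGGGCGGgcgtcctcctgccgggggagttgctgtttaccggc
SNRNP200: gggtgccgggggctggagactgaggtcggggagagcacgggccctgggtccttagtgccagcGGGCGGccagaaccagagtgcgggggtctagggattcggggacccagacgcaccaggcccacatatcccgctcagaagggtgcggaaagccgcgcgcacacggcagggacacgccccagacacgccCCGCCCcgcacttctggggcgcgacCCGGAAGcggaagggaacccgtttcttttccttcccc
PRPF8: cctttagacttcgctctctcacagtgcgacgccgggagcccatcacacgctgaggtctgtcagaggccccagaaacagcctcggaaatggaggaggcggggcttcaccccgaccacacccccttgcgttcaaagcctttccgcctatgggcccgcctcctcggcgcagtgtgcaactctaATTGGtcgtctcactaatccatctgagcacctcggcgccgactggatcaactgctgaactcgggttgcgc

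The RBM25 promoter held 1 GC box and 1 CCAAT box, and that of PRPF8 held 1 CCAAT box. The PTBP3 promoter held 2 GC boxes and that of SNRNP200 held 2 GC boxes and 1 ETS core. None of the printed promoters held TATAAA in this window. Of the 60 genes, 50 had at least 1 start in the RefSeq table, with 73 starts in all. A GC box stood before 56.2% of these starts, against 42.6% of all 35116 starts in the table. The ETS core stood before 15.1%, against 8.52% of all starts, the CCAAT box before 30.1% against 32.0%, and the TATA box before 5.48% against 10.7%. These are matches of letters and not known binding sites.

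Values are the log2 intensities the authors deposited, ascribed to RMA in the submitters' notes, and are given as mean ± SD over 3 arrays. Percentages of the scramble level and fold values below take this scale as log2 and would change if it holds a further transform. Array medians over all rows ran from 4.30 to 4.38. Over all rows, arrays of a group correlated at 0.987 to 0.991 (Pearson) and arrays of different groups at 0.984 to 0.988. The epithelial and colon markers EPCAM, CDH1, KRT8, KRT18, KRT19, VIL1 and CDX2 lay above 4.73, a background level below which 95% of 360 olfactory receptor genes lay, and CDH17 did not. Of 18 measured markers of other cell types, 3 (CD68, LYZ and ACTA2) lay above it. The log2 of the summed intensities of those 18 ran from 8.48 to 8.59 in the KHSRP siRNA arrays and from 8.48 to 8.54 in the scramble arrays. For the epithelial markers it ran from 16.14 to 16.32 and from 15.66 to 15.82, a sum made up largely of the keratins KRT18 and KRT8. KRT8, KRT18 and KRT19 were at log2 fold changes of 0.58, 0.49 and 0.55 (limma adjusted p = 0.0711, 0.0675 and 0.122). KRT8 has 2 rows, and when they were averaged the value was 0.83. KRT8 passed in 2 alternatives and KRT18 in 1. VIL1 was at 0.28 (limma adjusted p = 0.331) and its groups did not overlap, but it lay near background. It was at 5.08, 4.65 and 4.92 in the KHSRP siRNA arrays and at 4.60, 4.62 and 4.57 in the scramble arrays, all of the latter under 4.73. EPCAM was at 0.08, CDH1 at 0.03 and CDX2 at -0.09. The part of these marker differences in the results below was not tested. All 57 measured splicing genes lay above 4.73 in every array.

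No fall of the targeted gene could be detected. KHSRP was at 5.62, 5.60 and 5.56 in the arrays labelled KHSRP siRNA and at 5.75, 5.59 and 5.64 in the arrays labelled scramble siRNA, so the groups overlapped. Limma fitted a difference of -0.07 on the log2 scale (SE 0.08, 95% interval -0.26 to 0.12, adjusted p = 0.802). An exact permutation test gave a two-sided p = 0.3, where 3 arrays against 3 allow none below 0.1. The KHSRP row is shared with a microRNA gene. Its values lay not far above the background level of 4.73, which limits the fall that it could show. The groups are therefore named below by their labels alone, and every direction is that of the arrays labelled KHSRP siRNA against those labelled scramble siRNA.

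Of the 57 splicing genes, RBM25 was the only one that passed limma's test at an adjusted p under 0.05 over all 22826 genes, and it rose. The other 56 did not pass. Over all genes, 0.758% were called, 0.513% higher and 0.245% lower. No splicing gene differed by 2-fold or more, and the log2 fold changes ran from -0.68 for SNRNP200 to 0.60 for PTBP3. Their median was -0.04, against 0.02 for all genes tested, with 23 above 0 and 34 below. Of all 22826 genes, 12545 were above 0 and 10281 below, the background for the counts of signs given below. With a covariate for array medians the medians of the splicing genes and of all genes were -0.0040 and 0.0023. When arrays were left out singly, the log2 fold change moved by over 1.5 times without a change of sign for 26 of the 57 and changed sign for 13, all of them within 0.1 of 0 when every array was used. In 38 of the 57, limma's 95% confidence interval for the log2 fold change lay within 0.5 of 0, and in 56 it lay within 1.

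At an unadjusted limma p under 0.05, 16 of the 57 (28.1%) differed, where 14.5% of all genes did. Of these, 9 were lower (15.8%, against 5.94% of all genes) and 7 higher (12.3%, against 8.56%). The 3 arrays of one group all lay above the 3 of the other for 18 genes (31.6%), where 19.5% of all genes showed this. They lay lower in the KHSRP siRNA arrays for 11 (19.3%, against 7.87%) and higher for 7 (12.3%, against 11.6%). All 57 lay above the median level of the genes tested, and the shares of differing genes were larger among such genes than among all. When limma was run on the 11413 genes above the median level, an unadjusted p under 0.05 was found for 14 of the 57 (24.6%) and for 22.5% of those genes. By direction it was found on the lower side for 9 (15.8%, against 9.42%) and on the higher side for 5 (8.77%, against 13%). Groups did not overlap for 28.1% of the genes above the median level, 11.8% lower and 16.3% higher. Against the genes above the median level, then, the share that differed with both directions counted together was near the background. By direction it was above the background on the lower side and below it on the higher side. Those genes were not matched to the 57 by level. The difference between the lower and higher sides was not tested. The cells were measured in bulk, so fewer cells of a kind and less RNA per cell cannot be told apart.

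**Figure D1:**
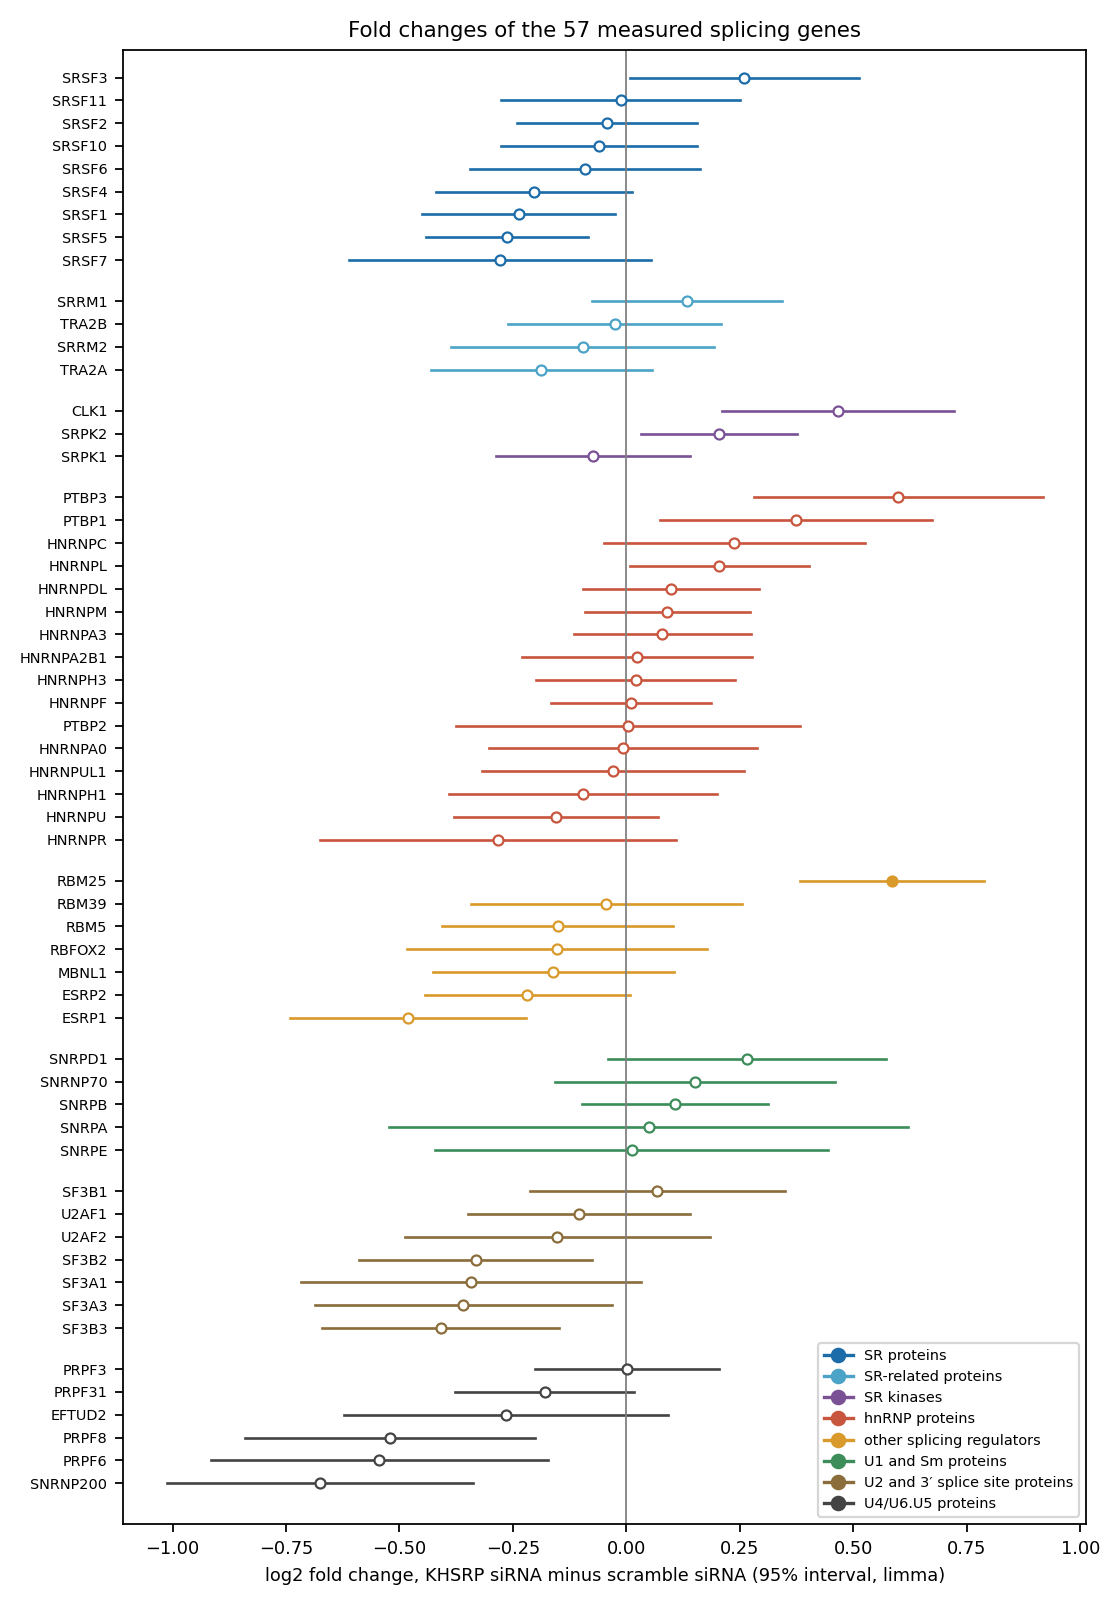
Log2 fold change (x axis, KHSRP siRNA minus scramble siRNA) of each measured splicing gene (y axis), grouped and coloured by class, with limma's 95% confidence interval as a line. The filled point is RBM25, the only gene called, and open points are not called. Points of the U4/U6.U5 class run from -0.68 for SNRNP200 to 0.001 for PRPF3, while those of the U1 and Sm class run from 0.01 to 0.27.

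RBM25 encodes a nuclear RNA-binding protein with an RNA recognition motif and a PWI domain that is known to promote the pro-apoptotic splice form of BCL2L1. Its log2 intensity was 9.96, 10.15 and 10.11 in the KHSRP siRNA arrays and 9.51, 9.42 and 9.54 in the scramble arrays. All 3 KHSRP siRNA arrays lay above all 3 scramble arrays, and the gap between the groups exceeded the range within either. RBM25 rose to 150.0% of the scramble level (95% interval 130% to 173%), a log2 fold change of 0.59 (SE 0.09, limma adjusted p = 0.0469). The call lay just inside the threshold and was lost in 10 of 14 alternative settings, where the adjusted p reached 0.169. The size moved less, from 0.55 to 0.64 over the same settings.

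The other regulators of this class were below 0 in 6 of 6 cases, and none passed. ESRP1, an epithelial splicing regulator that keeps epithelial exon choices such as that in FGFR2, was at 9.83, 10.15 and 9.84 in the KHSRP siRNA arrays and at 10.43, 10.34 and 10.50 in the scramble arrays. The groups did not overlap, and KHSRP siRNA replicate 2 lay nearest to the scramble arrays. Its log2 fold change was -0.48 (SE 0.11, 95% interval -0.74 to -0.22, adjusted p = 0.101). Its paralog ESRP2 was at 6.03, 6.17 and 6.06 against 6.20, 6.26 and 6.46, also without overlap (log2 fold change -0.22, SE 0.10, adjusted p = 0.362). MBNL1, RBFOX2, RBM5 and RBM39 overlapped between groups, with log2 fold changes of -0.16, -0.15, -0.15 and -0.04. MBNL1 and RBFOX2 are tissue-dependent regulators of alternative exons, RBM5 is a component of early spliceosomes, and RBM39 is a U2AF-like cofactor.

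Among the SR proteins, 8 of 9 measured genes had log2 fold changes below 0 and none passed the test. SRSF5 was at 14.29, 14.30 and 14.29 in the KHSRP siRNA arrays and at 14.49, 14.55 and 14.62 in the scramble arrays. The KHSRP siRNA arrays were nearly equal to each other and all lay below the scramble arrays (log2 fold change -0.26, SE 0.08, 95% interval -0.44 to -0.09, adjusted p = 0.170). SRSF1, the founding member of the family, was at 9.28, 9.38 and 9.49 against 9.53, 9.68 and 9.66. The groups again did not overlap, by a margin narrower than the spread within either (log2 fold change -0.24, SE 0.09, adjusted p = 0.291).

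SRSF3, the smallest SR protein and an adaptor for mRNA export, was the 1 gene of its class above 0. It was at 14.22, 14.58 and 14.40 in the KHSRP siRNA arrays and at 14.14, 14.20 and 14.09 in the scramble arrays. KHSRP siRNA replicate 1 lay just above the highest scramble array, and the groups did not overlap (log2 fold change 0.26, SE 0.11, 95% interval 0.01 to 0.51, adjusted p = 0.331). When the table was quantile-normalized again, the value was 0.16. SRSF7, the close relative of SRSF3 with a zinc knuckle, had the lowest fitted value of the class at -0.28 (SE 0.14, adjusted p = 0.444). It was spread over the KHSRP siRNA arrays, at 11.71, 11.15 and 11.33, and the first of these overlapped the scramble values of 11.62, 11.71 and 11.69. Without KHSRP siRNA replicate 1 the fitted value of SRSF7 was -0.43, and without replicate 2 it was -0.16.

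The remaining SR proteins overlapped between groups. SRSF4, whose RS domain is long, was at -0.20 (SE 0.09), and SRSF6 at -0.09 (SE 0.11). SRSF2, whose row is shared with the microRNA gene MIR636, was at -0.04 (SE 0.08), and SRSF10, which represses splicing when dephosphorylated, was at -0.06 (SE 0.09). SRSF10 had 2 rows: the brighter lies on an unplaced contig of the array design, and the other, on the assembled chromosome, gave a difference of group means of -0.06 as well. SRSF11 was at -0.01 (SE 0.11). SRSF9 was not measured by the rule, because its row also carries the protein-coding gene GATC. That shared row had means of 9.85 ± 0.08 (SD, n = 3) in the KHSRP siRNA arrays and 9.96 ± 0.07 (SD, n = 3) in the scramble arrays.

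Genes for SR-related proteins did not differ between groups beyond their spread. TRA2A, a sequence-specific activator of exons, had the largest fitted value of the 4 at -0.19 (SE 0.10, adjusted p = 0.487). It was at 11.70, 11.51 and 11.61 in the KHSRP siRNA arrays and at 11.81, 11.93 and 11.63 in the scramble arrays, and the groups overlapped. Its paralog TRA2B was at -0.03 (SE 0.10). SRRM1 and SRRM2, large co-activators that bridge SR proteins and snRNPs and localise to nuclear speckles, were at 0.13 (SE 0.09) and -0.10 (SE 0.12). SRRM2 without KHSRP siRNA replicate 2 was at -0.23.

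Of the kinases that phosphorylate RS domains, CLK1 and SRPK2 had non-overlapping groups on the higher side, and neither passed. CLK1, a nuclear kinase whose own transcript is kept partly unspliced in many cells, was at 10.27, 10.59 and 10.54 in the KHSRP siRNA arrays and at 9.98, 10.11 and 9.91 in the scramble arrays. Every KHSRP siRNA array was above every scramble array, replicate 1 by the least (log2 fold change 0.47, SE 0.11, 95% interval 0.21 to 0.72, adjusted p = 0.105). SRPK2 was at 9.03, 9.05 and 9.00 against 8.85, 8.78 and 8.83, a small difference with little spread in either group (log2 fold change 0.20, SE 0.07, adjusted p = 0.258). SRPK1, the other main cytoplasmic kinase of SR proteins, was at -0.07 (SE 0.09, adjusted p = 0.822).

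**Figure D2:**
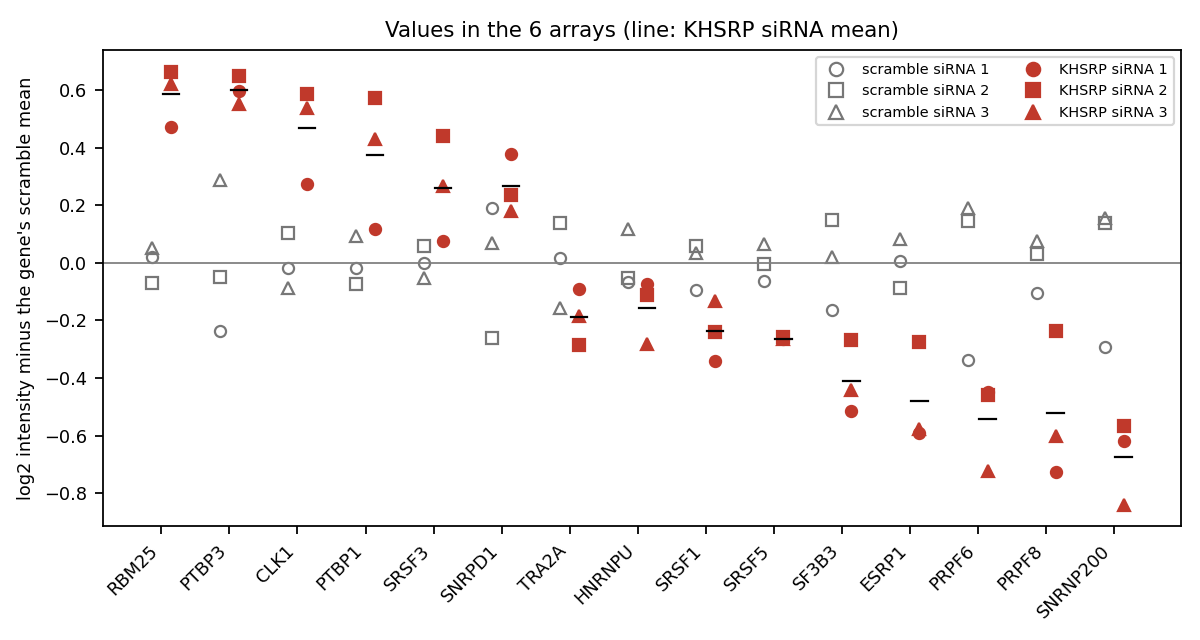
Log2 intensity of 15 splicing genes in each of the 6 arrays, with the gene's scramble mean subtracted (y axis). Open grey symbols are scramble siRNA arrays, filled red symbols KHSRP siRNA arrays, symbol shapes are replicate numbers, and short lines are the KHSRP siRNA means. The groups overlap for SNRPD1 and TRA2A and do not overlap for the others, with scramble replicate 1 lowest among the scramble arrays for PRPF6, PRPF8 and SNRNP200.

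The hnRNP genes were centred near 0, with 11 of 16 measured genes above 0, a median log2 fold change of 0.02 and no call. The polypyrimidine tract-binding proteins, repressors of exons flanked by pyrimidine-rich introns, included the largest values of the class. PTBP3, the family member first described in haematopoietic cells, was at 9.24, 9.29 and 9.19 in the KHSRP siRNA arrays and at 8.40, 8.59 and 8.93 in the scramble arrays. The KHSRP siRNA arrays lay close together and above all scramble arrays, which were spread widely (log2 fold change 0.60, SE 0.14, 95% interval 0.28 to 0.92, adjusted p = 0.0977). It did not pass in any of 13 alternatives, where the adjusted p ran from 0.0600 to 0.269. Its row also carries the microRNA gene MIR3134.

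PTBP1, the widely expressed paralog that represses neural exons, was at 6.83, 7.28 and 7.14 in the KHSRP siRNA arrays and at 6.69, 6.64 and 6.80 in the scramble arrays. KHSRP siRNA replicate 1 stood only just above the highest scramble array (log2 fold change 0.37, SE 0.13, 95% interval 0.07 to 0.67, adjusted p = 0.237). PTBP1 shares its row with the microRNA gene MIR4745. PTBP2, the neural paralog whose productive splicing PTBP1 represses, was at 5.48, 5.88 and 5.64 against 5.41, 5.62 and 5.95, and the groups overlapped throughout (log2 fold change 0.004, SE 0.16, adjusted p = 0.997).

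Of the other partners of KHSRP on the SRC N1 enhancer, HNRNPF and HNRNPH1 did not differ beyond their spread. HNRNPF was at 6.42, 6.46 and 6.38 in the KHSRP siRNA arrays and at 6.36, 6.44 and 6.44 in the scramble arrays (log2 fold change 0.01, 95% interval -0.17 to 0.19, adjusted p = 0.981). HNRNPH1, which binds G-runs like hnRNP F, was at 11.07, 11.43 and 11.21 against 11.15, 11.42 and 11.42 (log2 fold change -0.10, 95% interval -0.39 to 0.20, adjusted p = 0.835). Both pairs of groups overlapped, and the intervals leave room for larger changes of HNRNPH1 than of HNRNPF. SRC itself lay near background, with means of 4.44 ± 0.04 (SD, n = 3) and 4.52 ± 0.07 (SD, n = 3), both under 4.73, and was at -0.07 (SE 0.08, adjusted p = 0.771). These values are per gene and do not show whether the N1 exon was included.

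Among the other hnRNP genes, HNRNPL, which binds CA repeats, had non-overlapping groups on the higher side at 8.40, 8.42 and 8.24 against 8.15, 8.18 and 8.10 (log2 fold change 0.20, SE 0.08, adjusted p = 0.328). HNRNPU, a scaffold-attachment protein of chromatin, had them on the lower side, with a gap that vanishes at 2 decimals (14.95, 14.90 and 14.74 against 14.95, 14.96 and 15.14; log2 fold change -0.16, SE 0.10, adjusted p = 0.549). HNRNPC, which coats nascent transcripts at uridine tracts, was at 0.24 (SE 0.12, adjusted p = 0.448) with overlapping groups. HNRNPR had the lowest value of the class, -0.28 (SE 0.17), and its second row gave a difference of group means of -0.07. HNRNPA0, HNRNPA2B1, HNRNPA3, HNRNPDL, HNRNPH3, HNRNPM and HNRNPUL1 lay between -0.03 for HNRNPUL1 and 0.10 for HNRNPDL.

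HNRNPA1 and HNRNPH2 were not measured by the rule, since their rows carry a second protein-coding gene. HNRNPA1 shares its row with HNRNPA1P10 and HNRNPA1L2, and that row was at 16.43, 16.46 and 16.17 against 16.41, 16.36 and 16.52. HNRNPH2 shares its row with the read-through gene RPL36A-HNRNPH2, and that row was at 12.27, 13.15 and 12.26 against 12.40, 12.21 and 12.58. In the second of these, KHSRP siRNA replicate 2 stood apart from the other 5 arrays. U2AF1 has a near-identical copy in the reference annotation, LOC102724594, and hnRNP genes are known for many processed pseudogenes, so signal from such copies cannot be told apart from theirs.

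The U1 and Sm genes were all above 0 and their groups overlapped. SNRPD1, a core Sm protein of the ring on U1, U2, U4 and U5 RNAs, had the largest value at 0.27 (SE 0.13, 95% interval -0.04 to 0.57, adjusted p = 0.423). It was at 15.03, 14.89 and 14.83 in the KHSRP siRNA arrays and at 14.84, 14.39 and 14.72 in the scramble arrays, of which replicate 2 was the lowest. Without that array the value was 0.13. The U1 proteins SNRNP70 and SNRPA were at 0.15 (SE 0.13) and 0.05 (SE 0.24), and the Sm proteins SNRPB and SNRPE at 0.11 (SE 0.09) and 0.01 (SE 0.18). These values moved with single arrays. SNRNP70 was at 0.04 without scramble replicate 2, and without KHSRP siRNA replicate 1 SNRPB was at 0.05 and SNRPE at -0.15. SNRPA was the most variable of all 57 genes by its SE, and its sign changed when KHSRP siRNA replicate 2 was left out (-0.20).

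Genes of U2 and the 3′ splice site were below 0 in 6 of 7 cases, with a median of -0.33, and none passed. SF3B3, a scaffold of the SF3B complex, was at 11.37, 11.61 and 11.44 in the KHSRP siRNA arrays and at 11.72, 12.03 and 11.90 in the scramble arrays. The groups did not overlap (log2 fold change -0.41, SE 0.11, 95% interval -0.67 to -0.15, adjusted p = 0.151). SF3B2, which contacts the branch-point region, was at 11.70, 11.73 and 11.43 against 11.83, 12.02 and 12.00, again without overlap (-0.33, SE 0.11, adjusted p = 0.223). SF3A3 and SF3A1, of the SF3A complex of U2, were at -0.36 (SE 0.14) and -0.34 (SE 0.16) with overlapping groups. Without scramble replicate 3 the value of SF3A1 was -0.18.

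SF3B1, the subunit that grips the branch-point duplex and is mutated in several blood cancers, did not share the sign of its partners, at 0.07 (SE 0.12, 95% interval -0.21 to 0.35, adjusted p = 0.888). Its sign changed without KHSRP siRNA replicate 2 (-0.04). U2AF1 and U2AF2, which bind the AG and the pyrimidine tract of the 3′ splice site, were at -0.10 (SE 0.10) and -0.15 (SE 0.14). No test of SF3B1 against the other subunits was run.

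The U4/U6.U5 class had the lowest median, -0.39, and the groups did not overlap on the lower side for 4 of its 6 genes. Over all genes 7.87% lay so, and 11.8% of genes above the median level. None of its 6 genes passed the adjusted test. SNRNP200, the helicase that unwinds U4 from U6, was at 11.13, 11.18 and 10.91 in the KHSRP siRNA arrays and at 11.46, 11.88 and 11.90 in the scramble arrays. All KHSRP siRNA arrays lay below all scramble arrays, and scramble replicate 1 was the nearest to them. The level was 62.6% of the scramble level on the linear scale (95% interval 49.6% to 79.1%), with a log2 fold change of -0.68 (SE 0.14, adjusted p = 0.0870). Without scramble replicate 1 it was -0.82, and it did not pass in any of 14 alternatives (adjusted p from 0.0533 to 0.267).

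PRPF8, the scaffold at the catalytic centre, was at 11.98, 12.47 and 12.10 in the KHSRP siRNA arrays and at 12.60, 12.73 and 12.78 in the scramble arrays. KHSRP siRNA replicate 2 was the highest of its group and still below the scramble arrays (log2 fold change -0.52, SE 0.14, 95% interval -0.84 to -0.20, adjusted p = 0.136). PRPF6, which bridges U5 and the U4/U6 particle, was at 8.85, 8.84 and 8.58 against 8.97, 9.45 and 9.49 (log2 fold change -0.54, SE 0.16, adjusted p = 0.174). Scramble replicate 1 lay closer to the KHSRP siRNA arrays than to its own group. PRPF31, a U4/U6 protein mutated in a form of retinitis pigmentosa, was at 6.16, 6.27 and 6.33 against 6.37, 6.44 and 6.49, without overlap (-0.18, SE 0.08, adjusted p = 0.394).

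EFTUD2, the GTPase of the U5 particle, was at -0.27 (SE 0.15, adjusted p = 0.505) with overlapping groups. PRPF3, a U4/U6 protein, was at 0.001 (SE 0.09, 95% interval -0.20 to 0.20, adjusted p = 0.999). Without KHSRP siRNA replicate 1 EFTUD2 was at -0.15. Low and near-zero values occurred in both parts of the particle, since among the further genes the U4/U6 protein PRPF4 was at -0.49 and the U5 proteins SNRNP40 and TXNL4A were at -0.02 and -0.06.

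**Figure D3:**
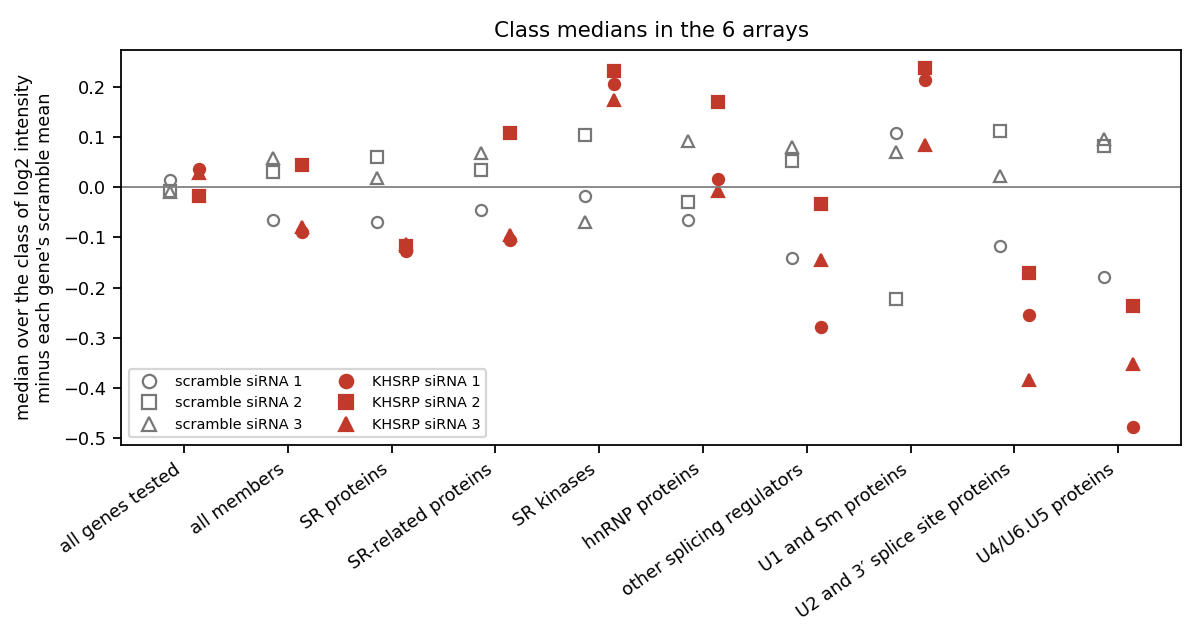
Median over each class (x axis) of log2 intensity minus each gene's scramble mean (y axis), in each of the 6 arrays, with all 57 splicing genes and all genes tested at the left. Open grey symbols are scramble siRNA arrays, filled red symbols KHSRP siRNA arrays, and shapes are replicate numbers. In the U4/U6.U5 class the KHSRP siRNA arrays lie at -0.48, -0.24 and -0.35 and the scramble arrays at -0.18, 0.08 and 0.10, while in the hnRNP class the groups overlap.

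Summarised by array, the class medians set the groups apart for 4 of the 8 classes. Of all genes taken singly, 19.5% had groups that did not overlap. How often class medians would be set apart in other sets of genes was not tested. In the U4/U6.U5 class, the median deviation from the scramble mean was -0.48, -0.24 and -0.35 in the KHSRP siRNA arrays and -0.18, 0.08 and 0.10 in the scramble arrays. In the U2 and 3′ splice site class it was -0.25, -0.17 and -0.38 against -0.12, 0.11 and 0.02. For SR proteins it was -0.13, -0.12 and -0.11 against -0.07, 0.06 and 0.02. For SR kinases it was 0.21, 0.23 and 0.17 against -0.02, 0.10 and -0.07. In the first 3 of these classes scramble replicate 1 was the scramble array nearest to the KHSRP siRNA arrays. Over all genes the same deviation lay between -0.02 and 0.04 in every array. Over all measured splicing genes it was -0.09, 0.04 and -0.08 against -0.07, 0.03 and 0.06, and the groups overlapped. For SR-related, hnRNP, other regulator and U1 and Sm genes the arrays of the groups overlapped.

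The arrays also differed in their overall median, which was from 4.37 to 4.38 in KHSRP siRNA replicates 1 and 3 and scramble replicate 1, and from 4.30 to 4.31 in the other 3. Within the arrays of higher median, the U4/U6.U5 class had a median difference of -0.19 with 6 of 6 genes below 0, and within those of lower median -0.33 with 5 of 6 below 0. The U2 and 3′ splice site class had -0.21 and -0.28, SR proteins -0.08 and -0.13, SR kinases 0.16 and 0.25, and hnRNP genes 0.07 and 0.15. The difference in RBM25 was 0.53 and 0.67, and that in SNRNP200 was -0.44 and -0.71. Each of these differences rests on 1 array of one group against 2 of the other, and was not tested.

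**Figure D4:**
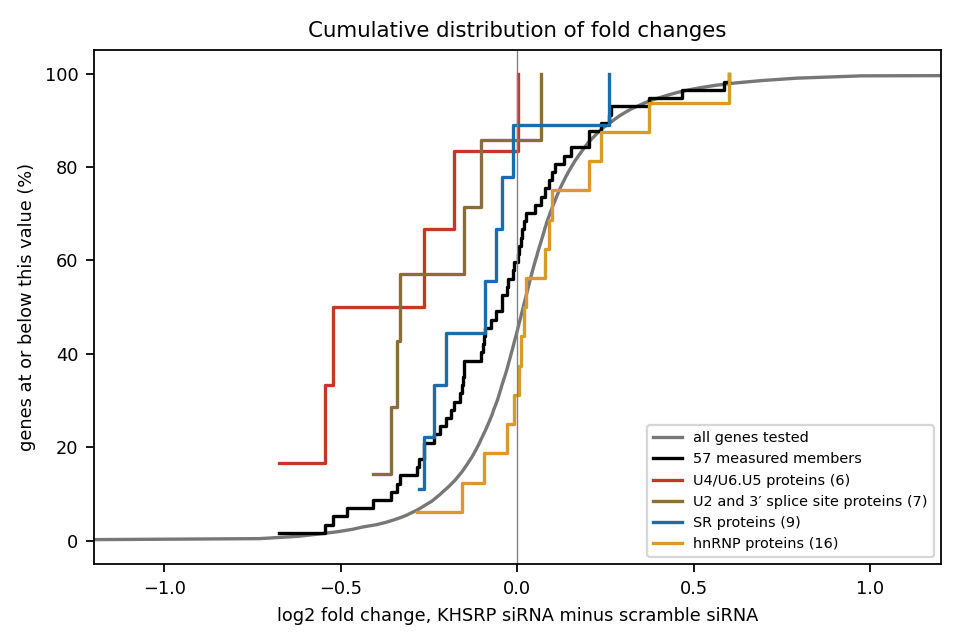
Cumulative distribution of log2 fold changes (x axis, KHSRP siRNA minus scramble siRNA; y axis, percent of genes at or below that value) for all 22826 genes tested, the 57 measured splicing genes and 4 of their classes. The curve of the U4/U6.U5 class, with a median of -0.39, and that of the U2 and 3′ splice site class, with a median of -0.33, lie left of the curve of all genes, whose median is 0.02, and the curve of the hnRNP genes follows it.

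The rest of the splicing machinery was read from 7 lists of other genes, 133 in all, of which 125 were measured. Of these, SNRNP27 rose and GEMIN5 fell (1.6% called, against 0.758% of all genes), and 123 did not pass. The median log2 fold change over the lists was 0.0003, with 63 genes above 0 and 62 below. Groups did not overlap for 21 genes on the higher side (16.8%, against 11.6% of all genes) and 18 on the lower (14.4%, against 7.87%). Among genes above the median level these shares were 16.3% and 11.8%, so those of the lists were nearer to them than to the shares of all genes.

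SNRNP27, a small protein of the U4/U6.U5 particle that acts near the 5′ splice site, was at 8.91, 8.98 and 9.05 in the KHSRP siRNA arrays and at 7.99, 7.62 and 8.15 in the scramble arrays. The groups were far apart compared with their ranges, and the gene rose 2.09-fold (log2 fold change 1.06, SE 0.14, limma adjusted p = 0.0427). Of the other 12 measured genes of its list, 11 were below 0 and none passed, among them PRPF4 at -0.49 (SE 0.12) and the recycling factor SART3 at -0.57 (SE 0.14). SART3 has a second row near background, with means of 3.79 and 3.81, and when its rows were averaged the value was -0.29. GEMIN5, the subunit of the SMN complex that recognises small nuclear RNAs for loading of the Sm ring, was at 7.95, 7.71 and 7.61 against 8.44, 8.74 and 8.60. It fell to 55.9% of the scramble level (log2 fold change -0.84, SE 0.12, limma adjusted p = 0.0469). Each of these calls held in 4 of 14 alternatives, with adjusted p up to 0.169.

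In the other lists the gene farthest from 0 among those without overlap was named for each, and none passed in the main setting. DDX39B, the helicase also known as UAP56 that helps U2 join and couples splicing to export, was at 12.33, 12.39 and 12.26 against 12.77, 13.19 and 12.99 (log2 fold change -0.66, SE 0.12, adjusted p = 0.0614). The row used for DDX39B carries several symbols and is the brightest of 8. When the rows of DDX39B were averaged, the value was -0.49. DHX38, the helicase PRP16 of the second step, was at 7.20, 7.37 and 6.93 against 7.80, 8.26 and 8.08 (-0.88, SE 0.15, adjusted p = 0.0583). In both genes every KHSRP siRNA array lay below every scramble array. Each of the 2 passed in 1 alternative, with a lowest limma adjusted p of 0.0394 for DDX39B and 0.0357 for DHX38. The LSm ring gene LSM6 was at 0.46 (SE 0.10, adjusted p = 0.0957), QKI, a STAR-family regulator, at 0.48 (SE 0.17, adjusted p = 0.249), and PPIG, a cyclophilin with an RS domain, at 0.33 (SE 0.11, adjusted p = 0.226).

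By list, the medians were 0.08 for 13 other SR proteins and kinases, 0.0003 for 29 other hnRNP proteins and regulators, and 0.12 for 15 other U1, Sm and LSm proteins. They were -0.07 for 15 other U2 proteins, -0.14 for 13 other U4/U6.U5 proteins, 0.03 for 23 catalytic and late-step proteins and 0.02 for 17 genes of the minor spliceosome and of snRNP assembly. Of the 5 genes of the SRC N1 list, SRC included, none passed. Log2 fold changes were above 0 for 10 of the 15 other U1, Sm and LSm genes, below 0 for 9 of the 15 other U2 genes and below 0 for 11 of the 13 other U4/U6.U5 genes, whose called gene SNRNP27 rose. They were above 0 for 9 of the 13 other SR proteins and kinases, opposite to the SR protein class above. Groups of that list did not overlap for 6 genes on the higher side (11.6% of all genes lay so) and 0 on the lower (7.87%). Above 0 were 15 of the 29 other hnRNP proteins and regulators, 12 of the 23 catalytic and late-step genes and 9 of the 17 minor spliceosome and assembly genes. These counts are descriptions, and no test of the classes was run.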

How the data were processed

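RNA from 6 samples labelled as biological replicates was measured on Affymetrix arrays. The submitters' processing notes name Affymetrix Expression Console, RMA, Transcriptome Analysis Console and build hg19; no version is given in the sources used here. The authors deposited log2 intensities for 70523 rows, with no depth. Array maxima of 19.72 to 19.93 are high for RMA, so a further transform of the scale is possible. Values were used as they stand.

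Rows were named through the platform annotation (25324 rows), with symbols updated through RefSeq. Of these, 23781 carried 1 symbol and 1543 several, of which 541 held exactly 1 protein-coding gene and were kept. The brightest row of each gene gave 22826 genes. Antisense transcripts were not named through their host genes.

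The KHSRP siRNA and scramble groups were then fitted in R 4.3.3 by limma 3.58.1 with lmFit and eBayes and without a trend, two-sided, with Benjamini-Hochberg adjustment over all genes and a threshold of 0.05. The script was tested on simulated data. Array values were given for called genes, for the largest non-overlapping rise and fall of each class (otherwise the largest value), for SR protein genes at an unadjusted p under 0.05, and for partners of KHSRP. ESRP2, SRPK2, SRSF7, HNRNPL, SF3B2, PRPF6, PRPF8, PRPF31 and the shared rows were added after their values were seen. The genes, classes and lists were chosen with earlier results of these data known. Alternatives were a replicate block, quantile normalization again, median centring, a filter on dim genes, another prior, other row rules, leaving out each array and, chosen after seeing the data, a covariate for array medians.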

Additional observations from a re-analysis of the deposited data

How the results depend on the processing

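Only RBM25 was called among the 57 splicing genes in the main setting, and the number of them called was 0 or 1 in all 14 alternatives. RBM25 remained called among genes above the median level, when rows of a gene were averaged, with rows of 1 symbol only and without KHSRP siRNA replicate 1. It was lost when centred on array medians, with the covariate for array medians, with the intensity trend and robust prior, after quantile normalization again, with the replicate block and without any other single array (limma adjusted p from 0.0530 to 0.169). No other gene of the 57 was called in any alternative. Over all genes 173 were called (117 higher and 56 lower) against 447 among genes above the median level (275 higher and 172 lower), 32 after quantile normalization again (11 higher and 21 lower), and 0 by limma when centred on array medians, with the covariate for array medians or with the intensity trend and robust prior (3180, 3627 and 3176 genes at an unadjusted p under 0.05). When arrays were left out singly the count ran from 0 to 355 (0 to 249 higher and 0 to 106 lower), the highest without KHSRP siRNA replicate 1. With the replicate block 1 gene of all was called, 0 higher and 1 lower, and 0 splicing genes were called, where 14 had an unadjusted p under 0.05. Deviations of arrays with the same number correlated at 0.163, 0.060 and -0.077, so the numbers were not taken to pair the samples. The median over all genes was -0.0071 when centred on array medians. Without KHSRP siRNA replicate 2 the median of all splicing genes was -0.12 and that of SR proteins -0.16, where leaving out single arrays gave ranges from -0.12 to -0.028 and from -0.16 to -0.080. The SR protein median was -0.15 with rows of 1 symbol only, since SRSF2 then has no value. With the covariate for array medians the median of all splicing genes was -0.0040, against 0.0023 for all genes. The sign of the log2 fold change was the same in all alternatives for 44 of 57 splicing genes. The median of hnRNP genes ran from -0.02 to 0.09 and changed sign, and so did that of SR-related genes (-0.11 to 0.01). The U4/U6.U5 median ran from -0.48 to -0.28 and the U2 and 3′ splice site median from -0.38 to -0.24, below 0 in all 14 alternatives. The cause of these shifts was not tested.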
